A study of Mus musculus with 8 samples.

Results

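The 10 genes described here encode secreted proteins that act on blood vessels or on the uptake of lipid from them. They comprise the vascular endothelial growth factor (VEGF) family genes Vegfa, Vegfb, Vegfc and Pgf, the angiopoietin genes Angpt1 and Angpt2, the angiopoietin-like genes Angptl2, Angptl4 and Angptl8, and Apln, which encodes apelin. They were chosen by symbol, through the gene identifiers of GENCODE M21, and all 10 were found among the 24821 genes of the deposited table. Their RNA was measured by RNA-seq of epididymal white adipose tissue (eWAT), the gonadal fat depot of male mice. The 4 KO libraries came from male Ccdc92 knockout mice. The 4 WT libraries came from wild type male littermates matched for age. Both groups had the C57BL/6 background and received the same diet, a high-fat one fed for 14 weeks in which fat gave 60% of the calories, protein 20% and carbohydrate 20%. How Ccdc92 was deleted, in which cells and over which part of the gene is not given in the sources used here. The labels do not state 1 animal per library, and p-values therefore cover the variation among these 8 samples, part of which may be technical.

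VEGF ligands bind receptor tyrosine kinases on endothelial cells: Vegfa binds the products of Flt1 and Kdr, Vegfb and Pgf bind that of Flt1, and Vegfc binds that of Flt4 and drives the growth of lymphatic vessels. The angiopoietins share the receptor encoded by Tek, on which Angpt1 is an activating ligand and Angpt2 an antagonist or a weak activator depending on context, and apelin acts on the receptor encoded by Aplnr. The angiopoietin-like proteins do not bind Tek: Angptl4 and Angptl8 regulate lipoprotein lipase, the enzyme that frees fatty acids from circulating triglyceride, and Angptl2 is a secreted protein linked to inflammation in fat.

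In KO eWAT, Vegfa, Vegfb, Apln, Angptl2 and Angptl4 were higher and Angpt2 was lower than in WT eWAT. Vegfa, the main growth factor for endothelial cells, rose 5.58-fold, Vegfb rose 2.99-fold, Apln 2.51-fold, Angptl2 1.71-fold and Angptl4 1.40-fold, while Angpt2 was at 0.53 of its WT level. Vegfc, Pgf, Angpt1 and Angptl8 did not pass the test. All 10 genes passed the filter on low values (4 or more of the 8 libraries with a normalized count of 10 or more). Under limma with Benjamini-Hochberg adjustment over all genes tested, at an adjusted p under 0.05, 5 of the 10 were called higher and 1 lower in KO. The same call was made for 41.7% of the 17798 genes tested, 20.2% higher and 21.5% lower, so that a call by itself was common in this tissue. Under quantile normalization the split over all genes was 4593 higher and 3257 lower, against 3592 and 3831 here. The median log2 fold change was 0.34 over the 10 genes and -0.007 over all genes tested.

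**Figure D1:**
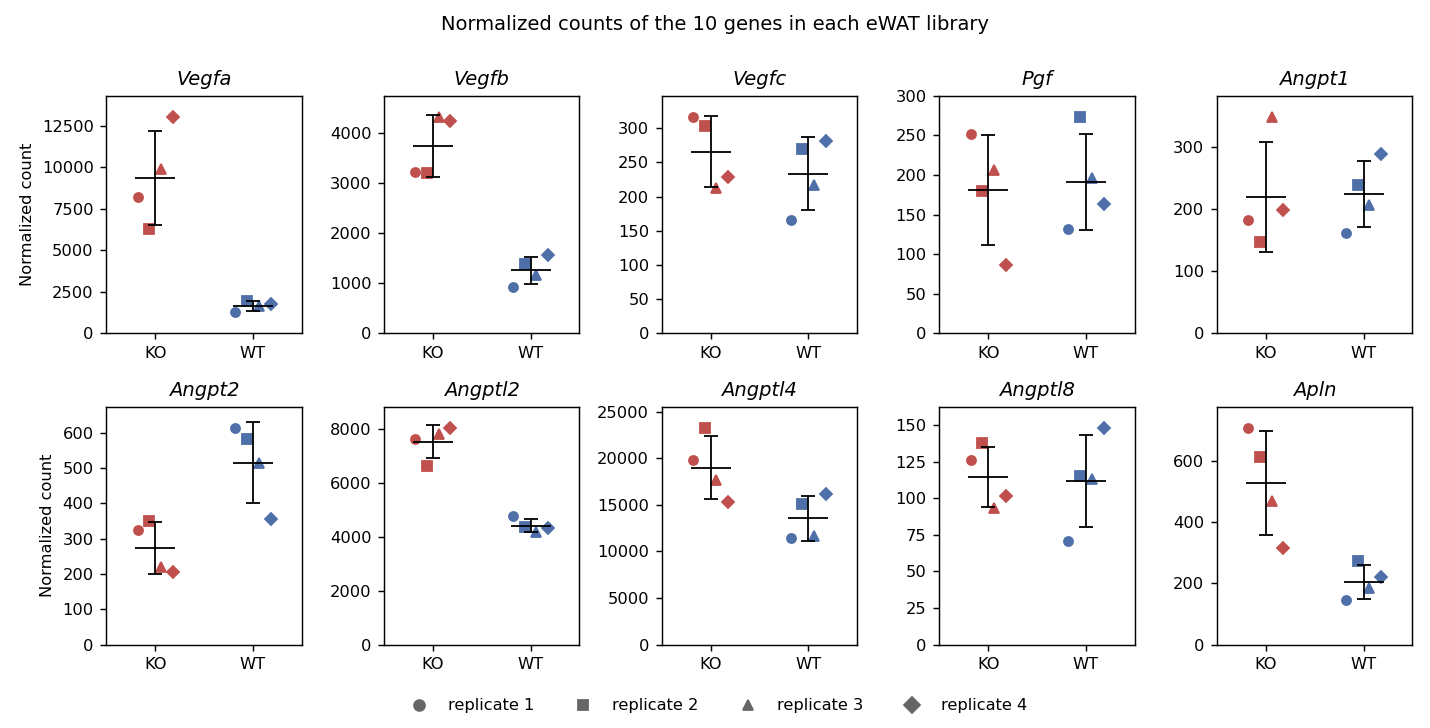
Normalized count (linear scale) of each of the 10 genes in the 4 KO and the 4 WT libraries, with 1 point per library and the group mean and SD beside the points. The KO points of Vegfa, Vegfb, Angptl2 and Apln all lie above their WT points and those of Angpt2 all lie below, while KO and WT points overlap for Vegfc, Pgf, Angpt1, Angptl4 and Angptl8.

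Recovered reads ran from 23681088 to 33817478 per library. As a check of the labels, Ccdc92 had normalized counts of 9.2, 5.1, 9.7 and 4.9 in the KO libraries and 54.1, 68.3, 105.8 and 99.2 in the WT libraries, a log2 fold change of -3.34 (limma adjusted p = 3.83e-04, SE 0.33). Mitochondrial genes took 3.75 to 4.38% of the reads in KO and 2.73 to 3.63% in WT. KO replicate 3 stood apart by its top gene, a haemoglobin gene with 5.78% of its reads. Of 9 adipocyte markers, 8 were higher in KO and their summed normalized count was 755096 to 996303 in KO and 183090 to 395736 in WT. All 10 macrophage markers were lower, with sums of 41770 to 65813 in KO and 125304 to 273394 in WT. Of 7 epididymal markers, 6 were tested and 4 were lower, and the sums over all 7 were 10 to 1078 in KO and 50210 to 112595 in WT. The highest WT sum was that of replicate 4, where Akr1b7 alone had 80635.9, against 188.1 to 211.6 in the other WT libraries. Crisp1, Lcn5, Lcn8, Adam7 and Akr1b7 were at 0 in at least 1 library. All 4 epithelial markers were lower, with sums of 458 to 2002 in KO and 3533 to 6923 in WT. Of 7 fibroblast and progenitor markers 4 were lower, with sums of 74773 to 151031 in KO and 161017 to 255750 in WT, and 5 mesothelial markers had overlapping sums of 1947 to 13489 in KO and 1424 to 7635 in WT. Over all genes tested, 20.2% were higher and 21.5% lower. The part of these marker shifts in the values of the 10 genes was not tested, and in bulk tissue fewer cells of a type and less RNA per cell cannot be told apart.

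The promoters of 4 genes that rose are shown because their changes stood clear of the replicate spread. RefSeq's table of promoters for GRCm38.p6 held 7 of the 10 genes, with no entry for Angpt1, Angpt2 and Angptl4. Each sequence is the 250 bases before the first listed RefSeq start, read 5′ to 3′ on the gene's strand, and capitals mark matches to GGGCGG (the GC box) or AGGTCA (a nuclear receptor half-site) on either strand. The windows are chr17:46032378-46032627 on the minus strand for Vegfa, chr19:6987652-6987901 on the minus strand for Vegfb, chr2:33215711-33215960 on the plus strand for Angptl2 and chrX:48034854-48035103 on the minus strand for Apln.
Vegfa: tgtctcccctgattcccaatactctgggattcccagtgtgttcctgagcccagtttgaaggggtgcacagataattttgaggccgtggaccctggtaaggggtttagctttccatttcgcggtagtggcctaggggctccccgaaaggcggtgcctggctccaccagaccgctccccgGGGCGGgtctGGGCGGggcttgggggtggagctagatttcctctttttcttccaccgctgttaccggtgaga
Vegfb: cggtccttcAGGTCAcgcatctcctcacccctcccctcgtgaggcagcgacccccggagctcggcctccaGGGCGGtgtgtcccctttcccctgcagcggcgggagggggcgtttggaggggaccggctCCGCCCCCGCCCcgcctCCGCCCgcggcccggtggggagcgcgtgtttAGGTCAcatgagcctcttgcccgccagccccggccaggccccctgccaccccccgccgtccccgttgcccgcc
Angptl2: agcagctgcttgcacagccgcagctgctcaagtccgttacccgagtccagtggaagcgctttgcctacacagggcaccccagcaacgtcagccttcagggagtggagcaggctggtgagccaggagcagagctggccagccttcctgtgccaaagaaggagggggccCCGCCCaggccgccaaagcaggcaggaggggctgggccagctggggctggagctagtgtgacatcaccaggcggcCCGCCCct
Apln: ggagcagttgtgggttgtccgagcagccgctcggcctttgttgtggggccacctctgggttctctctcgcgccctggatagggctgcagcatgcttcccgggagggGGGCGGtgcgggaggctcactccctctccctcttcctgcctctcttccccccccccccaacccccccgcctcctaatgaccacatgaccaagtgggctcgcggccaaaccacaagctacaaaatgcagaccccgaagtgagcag

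All 4 windows held GGGCGG, with 2 matches in Vegfa, 4 in Vegfb, 2 in Angptl2 and 1 in Apln. Of all 32851 promoters of the same length, 32.7% held that motif. The Vegfa matches began 72 and 62 bases before the start. The Vegfb window also held AGGTCA, a motif of 14% of all promoters, at 241 and 73 bases before the start. ACGTG, the core of the hypoxia response element, was in 16.6% of all promoters but not in these 4 windows, nor was CACGTG, which contains it and was in 6.02%. The search covered only the 250 bases before each start, so it cannot show whether a gene has such an element farther away. A second Vegfa start in the same table had 1 match to ACGTG, 211 bases before it on the other strand, and 1 to GGGCGG. The same search found GGGCGG at 2 places in the first window of Vegfc and of Pgf, genes that did not pass the test, and no match to any of the 4 motifs in that of Angptl8. The GC content was 59.2% in Vegfa, 76.4% in Vegfb, 66.8% in Angptl2 and 65.2% in Apln, against a median of 52.4% over all promoters.

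Among the VEGF family, Vegfa lies at chr17:46016993.0-46032369.0 (minus strand) in GRCm38. It had normalized counts of 8215.1, 6306.5, 9879.4 and 13028.6 in the KO libraries, replicates 1 to 4, and 1254.0, 1933.9, 1621.7 and 1740.6 in the WT libraries. Even KO replicate 2, the lowest of its group, stood at more than 3 times the highest WT library. The mean was 9357 ± 2850 in KO and 1638 ± 286.3 in WT (SD, n = 4 each), and the log2 fold change was 2.48 (SE 0.22, 95% interval 1.97 to 2.99, limma adjusted p = 3.50e-04). Of the genes tested, 0.427% had a larger rise. Vegfa also spread more between KO libraries, with a coefficient of variation of 30.5% in KO and 17.5% in WT.

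Vegfb, a ligand of the Flt1 receptor, lies at chr19:6982473.0-6987651.0 (minus strand). Its normalized counts were 3225.6, 3187.5, 4309.3 and 4233.7 in KO and 932.9, 1381.9, 1167.8 and 1552.4 in WT. The KO libraries fell into a lower pair, replicates 1 and 2, and a higher pair, replicates 3 and 4, both above every WT library. The mean was 3739 ± 615.8 in KO and 1259 ± 268.2 in WT (SD, n = 4 each), and the log2 fold change was 1.58 (SE 0.18, 95% interval 1.18 to 1.98, limma adjusted p = 5.82e-04). Of all genes tested, 2.25% rose more.

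Vegfc, the lymphatic growth factor, had normalized counts of 316.0, 303.4, 212.8 and 229.2 in KO and 166.0, 270.2, 216.3 and 280.9 in WT. The groups overlapped, with KO replicates 1 and 2 highest and WT replicate 1 lowest. Its log2 fold change was 0.19 (SE 0.20, 95% interval -0.27 to 0.66, limma adjusted p = 0.474). Pgf, the placental growth factor gene, had 251.7, 179.5, 206.4 and 86.1 in KO and 132.1, 273.1, 195.9 and 162.9 in WT. KO replicate 4 was the lowest library, with 71 reads (95% Poisson interval 55.5 to 89.6, counting error only), and the groups overlapped. The log2 fold change of Pgf was -0.13 (SE 0.35, 95% interval -0.93 to 0.67, limma adjusted p = 0.789). The upper bounds of both intervals lay below the lower bound of 1.97 for Vegfa, and smaller changes in either direction were not detectable at this spread.

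Of the angiopoietins, Angpt2, at chr8:18690263.0-18741562.0 (minus strand), had normalized counts of 325.2, 349.5, 218.2 and 205.0 in KO and 611.9, 580.9, 513.3 and 354.9 in WT. The groups did not overlap, but WT replicate 4 lay just above KO replicate 2. The mean was 274.5 ± 73.49 in KO and 515.2 ± 114.5 in WT (SD, n = 4 each), and Angpt2 fell by 0.92 on the log2 scale (SE 0.23, limma adjusted p = 0.014). Of all genes tested, 14.4% fell further.

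Angpt1, the activating ligand of Tek, had normalized counts of 182.7, 147.0, 348.3 and 198.9 in KO and 161.4, 239.5, 207.0 and 288.4 in WT. KO replicate 3 was the highest library and KO replicate 2 the lowest, so the WT values lay within the KO range. The log2 fold change was -0.08 (SE 0.28, 95% interval -0.72 to 0.56, limma adjusted p = 0.844). Angpt1 shares 737 exonic bases, 14.2% of its exon length, with the opposite-strand gene Gm17473, and the strand setting of the counting is not given in the sources used here. Angpt2 lies inside Mcph1 on the opposite strand with no shared exonic base, and Mcph1 was higher in KO (log2 fold change 0.47, limma adjusted p = 0.0157).

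Of the angiopoietin-like genes, Angptl2 at chr2:33216069.0-33247717.0 (plus strand) had normalized counts of 7626.7, 6621.0, 7793.0 and 8007.8 in KO and 4751.7, 4348.7, 4180.1 and 4312.7 in WT. Both groups were tight and did not overlap, with coefficients of variation of 8.2% in KO and 5.6% in WT. The mean was 7512 ± 614.2 in KO and 4398 ± 246.5 in WT (SD, n = 4 each), and the log2 fold change was 0.77 (SE 0.09, 95% interval 0.57 to 0.97, limma adjusted p = 5.90e-04). Angptl2 lies inside Ralgps1 on the opposite strand with no shared exonic base. Ralgps1 was lower in KO, with a log2 fold change of -0.56 (limma adjusted p = 0.0255).

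Angptl4, an inhibitor of lipoprotein lipase at chr17:33773750.0-33781830.0 (minus strand), had normalized counts of 19797.1, 23212.0, 17721.8 and 15272.2 in KO and 11420.6, 15088.6, 11638.1 and 16164.6 in WT. KO replicate 4 lay below WT replicate 4, so the groups overlapped. The mean was 19001 ± 3362 in KO and 13578 ± 2408 in WT (SD, n = 4 each), and the log2 fold change was 0.48 (SE 0.17, 95% interval 0.10 to 0.87, limma adjusted p = 0.0473). This call held in 8 of 18 alternative analyses. It was lost without WT replicate 1 (limma adjusted p = 0.11), 2 (0.0513) or 3 (0.125), and without KO replicate 1 (0.103), 2 (0.106) or 3 (0.0744).

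Angptl8, which acts with other angiopoietin-like proteins on lipoprotein lipase, had normalized counts of 126.4, 137.6, 93.5 and 101.9 in KO and 70.6, 115.4, 113.3 and 147.9 in WT. The KO values lay within the WT range. The log2 fold change was 0.07 (SE 0.24, 95% interval -0.48 to 0.62, limma adjusted p = 0.839). Its lowest library, WT replicate 1, held 77 reads (95% Poisson interval 60.8 to 96.2). Angptl8 lies inside Dock6 on the opposite strand with no shared exonic base.

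Apln, at chrX:48025146.0-48034853.0 (minus strand), had normalized counts of 705.6, 612.7, 469.7 and 316.5 in KO and 144.0, 274.1, 183.8 and 219.1 in WT. KO replicate 4 came nearest to WT replicate 2, and the groups did not overlap. The mean was 526.1 ± 170.1 in KO and 205.2 ± 55.19 in WT (SD, n = 4 each), and the log2 fold change was 1.33 (SE 0.28, 95% interval 0.69 to 1.97, limma adjusted p = 0.00631). Of all genes tested, 3.76% rose more. The KO libraries ranked differently for the ligands: replicate 4 was highest for Vegfa and lowest for Apln, while replicate 1 was highest for Apln. In all, 4 of the 10 genes were higher in KO with no overlap between groups and 1 was lower with none, which makes 5 of 10 beside 42.1% of all genes tested (21% higher and 21.1% lower).

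**Figure D2:**
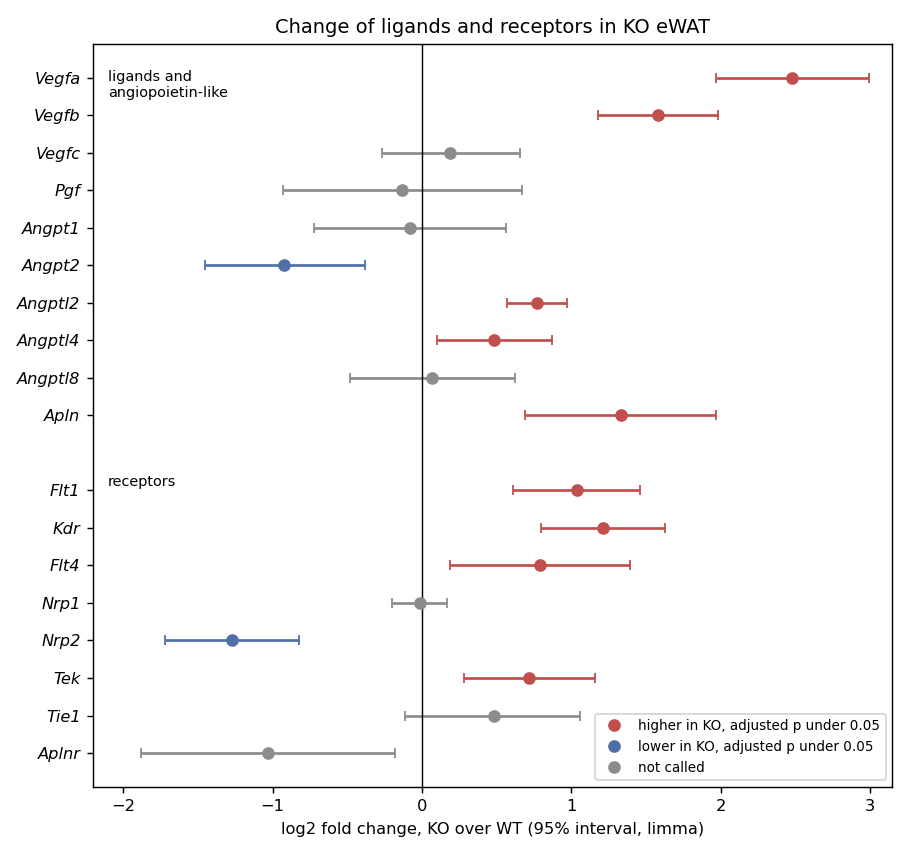
Log2 fold change, KO over WT, of the 10 genes and of 8 receptor genes, with limma's 95% interval as a bar and the colour giving the call at an adjusted p under 0.05. Vegfa has the largest rise of the 18 genes at 2.48, and Nrp2 the largest fall at -1.27.

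Levels of different genes were compared as mean normalized count per kilobase of exon. The length is that of all annotated exons of a gene, which can differ from the length of the transcripts present. In KO the order was Angptl4 (5366), Vegfb (2330), Vegfa (2184), Angptl2 (1195), Apln (167.1), Angptl8 (132.8), Vegfc (108.4), Angpt2 (74.38), Pgf (62.31) and Angpt1 (42.12). In WT it was Angptl4 (3835), Vegfb (784.3), Angptl2 (699.7), Vegfa (382.2), Angpt2 (139.6), Angptl8 (129.3), Vegfc (95.29), Pgf (65.79), Apln (65.18) and Angpt1 (43.05). Neighbours in these orders had ranges that did not overlap only for Angptl4 over Vegfb, Vegfa over Angptl2 and Angptl2 over Apln in KO, and for Angptl4 over Vegfb, Angptl2 over Vegfa and Vegfa over Angpt2 in WT. Per kilobase, Vegfa thus stood above Angptl2 in every KO library and below it in every WT library. In normalized counts, KO replicate 2 had less Vegfa (6306.5) than Angptl2 (6621.0). The ranges of the other neighbours overlapped. Within single libraries, where both genes share depth and scaling, Angptl8 was nevertheless above Vegfc in 4 of 4 KO and 4 of 4 WT libraries. Vegfc was likewise above Angpt2 in 4 of 4 KO libraries, and in 4 of 4 WT libraries it was above Pgf, as was Apln above Angpt1. These orders depend on the division by length. In normalized counts Vegfc exceeded Angptl8 in every library, with 212.8 to 316.0 against 93.5 to 137.6 in KO.

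**Figure D3:**
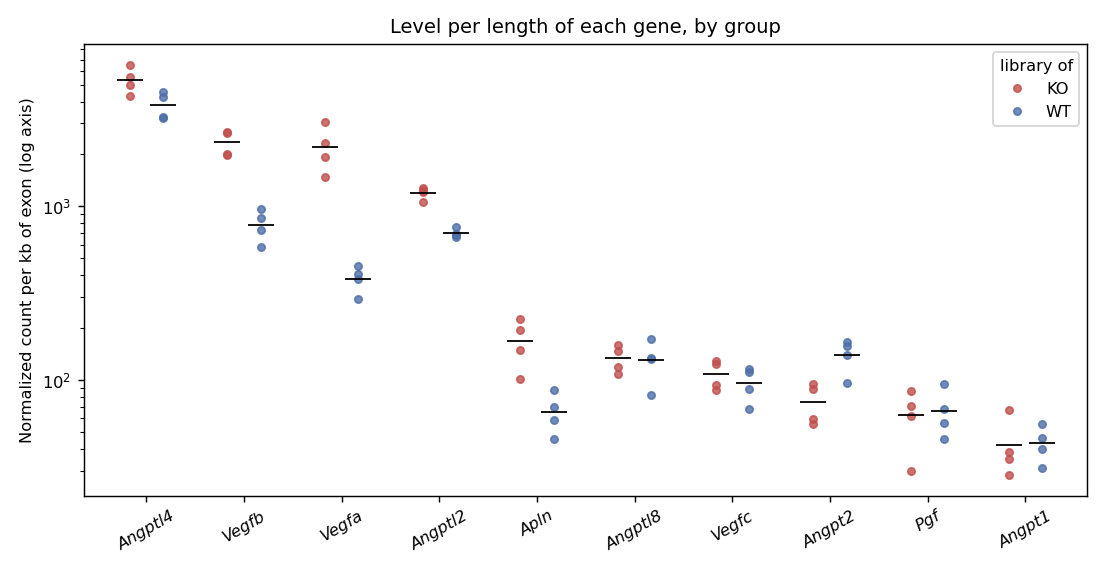
Normalized count per kilobase of exon (log axis) of the 10 genes, with 1 point per library of KO and WT and a line at each group's mean. Angptl4 has the highest mean in both groups, at 5366 in KO and 3835 in WT, and Angpt1 the lowest, at 42.12 in KO and 43.05 in WT.

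Pairs of genes from one signalling system were set against each other within each library as log2 ratios, with a two-sided exact permutation test over all 70 ways to assign 4 of the 8 libraries to KO and Benjamini-Hochberg adjustment over the 4 ratios. The smallest p that this design allows is 0.0286. The log2 ratio of Vegfb over Vegfa was -1.35, -0.98, -1.20 and -1.62 in KO and -0.43, -0.48, -0.47 and -0.16 in WT. All 4 KO values lay below the lowest WT value, that of replicate 2. The mean difference was -0.90 (exact permutation p = 0.0286, adjusted p = 0.0571). The log2 ratio of Pgf over Vegfa was -5.02, -5.13, -5.57 and -7.22 in KO and -3.24, -2.82, -3.04 and -3.41 in WT, a mean difference of -2.61 (exact permutation p = 0.0286, adjusted p = 0.0571). KO replicate 4, highest for Vegfa and lowest for Pgf, was the extreme library, and the groups did not overlap. Neither ratio passed at 0.05 after adjustment.

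The log2 ratio of Angpt2 over Angpt1 was 0.83, 1.24, -0.67 and 0.04 in KO and 1.92, 1.27, 1.31 and 0.30 in WT. KO replicate 3 had the lowest ratio and WT replicate 1 the highest, and the groups overlapped. The mean was 0.36 ± 0.85 in KO and 1.20 ± 0.67 in WT (SD, n = 4 each; exact permutation p = 0.143, adjusted p = 0.143). The log2 ratio of Angptl8 over Angptl4 averaged -7.36 ± 0.15 in KO and -6.94 ± 0.29 in WT (SD, n = 4 each; exact permutation p = 0.0857, adjusted p = 0.114), with overlapping groups.

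**Figure D4:**
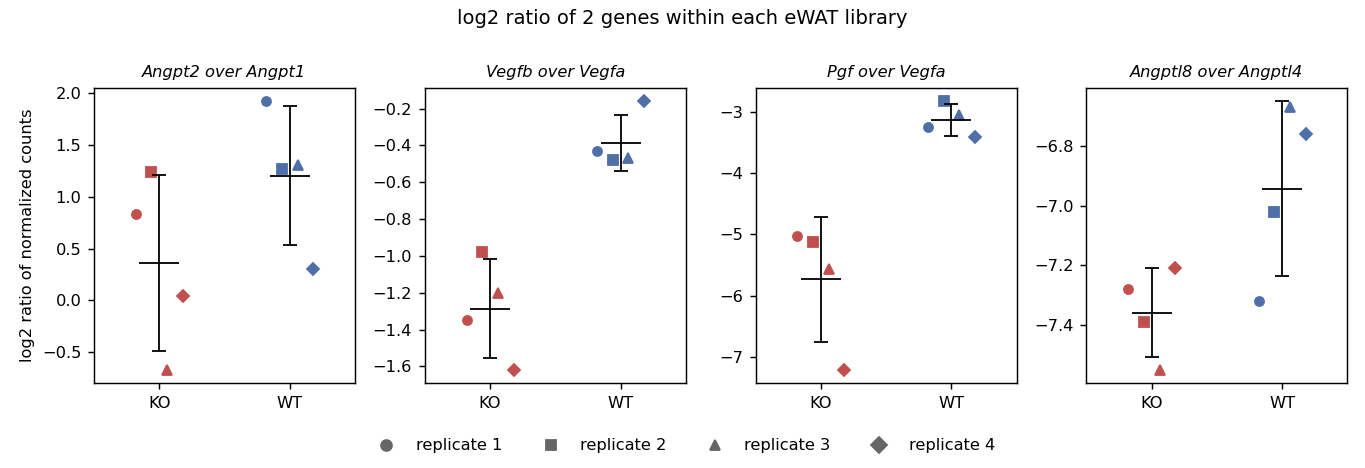
Log2 ratio within each library for Angpt2 over Angpt1, Vegfb over Vegfa, Pgf over Vegfa and Angptl8 over Angptl4, with 1 point per library for KO and WT and the group mean and SD as lines. KO points lie below all WT points for Vegfb over Vegfa and Pgf over Vegfa, and overlap them for the other ratios.

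Of 8 receptor genes, 4 were higher and 1 lower in KO, beside 20.2% and 21.5% of all genes tested. Kdr, the main signalling receptor of Vegfa on endothelium, had normalized counts of 6684.5, 4911.9, 6247.3 and 6592.5 in KO and 1860.3, 3308.2, 2631.7 and 2892.3 in WT. Every KO library exceeded every WT library, and Kdr rose by 1.21 on the log2 scale (limma adjusted p = 0.00154, SE 0.18). Flt1, the receptor that binds Vegfa, Vegfb and Pgf, averaged 4363 ± 253.7 in KO and 2189 ± 592.1 in WT (SD, n = 4 each; log2 fold change 1.04, SE 0.19, limma adjusted p = 0.00329). Flt4, the Vegfc receptor, averaged 865.0 ± 176.0 in KO and 513.9 ± 157.8 in WT (SD, n = 4 each; log2 fold change 0.79, SE 0.26, limma adjusted p = 0.0395). The Flt4 call was lost without WT replicate 3 (limma adjusted p = 0.0674) or KO replicate 1 (0.0958), 2 (0.0892) or 3 (0.0553). Tek had a log2 fold change of 0.72 (limma adjusted p = 0.0172, SE 0.19), and Tie1, its orphan relative, had one of 0.48 (limma adjusted p = 0.166, SE 0.26).

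The neuropilins, co-receptors of the VEGF family, differed from each other. Nrp2, which binds Vegfc, had normalized counts of 2561.4, 2611.5, 2038.0 and 1913.7 in KO and 7360.6, 4290.0, 6348.6 and 4418.5 in WT. Every KO library was below every WT library, and Nrp2 fell by 1.27 on the log2 scale (SE 0.20, limma adjusted p = 0.00176). Nrp1 averaged 6418 ± 218.0 in KO and 6494 ± 499.1 in WT (SD, n = 4 each; log2 fold change -0.01, SE 0.08, limma adjusted p = 0.899). Aplnr, the apelin receptor, had 742.3, 1175.0, 466.5 and 428.1 in KO and 784.3, 1988.7, 1353.5 and 1437.3 in WT. KO replicate 2 exceeded WT replicate 1, so the groups overlapped, and the log2 fold change of -1.03 (SE 0.37) did not pass (limma adjusted p = 0.0537). Aplnr passed as lower without WT replicate 1 (log2 fold change -1.28, limma adjusted p = 0.0277) or KO replicate 2 (-1.32, 0.0165).

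Of 10 endothelial markers, 8 were higher in KO, with a summed normalized count of 43215 to 47531 in KO and 16947 to 34850 in WT. The 2 not called were Pecam1 (log2 fold change 0.46, limma adjusted p = 0.103) and Cdh5 (0.65, 0.0606), both with overlapping groups. Over all genes tested, 20.2% were higher and 21.5% lower. Of the called ligand and receptor genes, Vegfa, Vegfb, Apln, Angptl2, Angptl4, Kdr, Flt1, Flt4 and Tek moved in the same direction as the called endothelial markers. Angpt2 and Nrp2 moved in the opposite one. Of 9 adipocyte markers 8 were also higher, with a median log2 fold change of 1.79, against 0.83 for the endothelial markers. All 10 macrophage and all 4 epithelial markers were lower, as were Angpt2 and Nrp2, with medians of -1.60 and -3.14. The part of the endothelial, adipocyte, macrophage or epithelial shifts in these values was not tested.

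Of 6 other VEGF, angiopoietin and angiopoietin-like genes tested, 1 was called, Angptl7, lower in KO with a log2 value of -1.75 KO over WT (limma adjusted p = 0.0348, SE 0.56). Its normalized counts were low, 9.7 to 41.4 in KO and 36.5 to 181.6 in WT, and the groups overlapped. The highest value was that of WT replicate 4. The Angptl7 call held in 7 of 17 alternatives. It was lost without WT replicate 1 (limma adjusted p = 0.062), 3 (0.0641) or 4 (0.0618), or KO replicate 2 (0.0543), 3 (0.0858) or 4 (0.0771). Quantile normalization (0.0534), library weights (0.0509) and the replicate block (0.0593) also removed it. Among 6 genes tested that make, carry or cleave lipoprotein lipase, the enzyme on which Angptl4 and Angptl8 act, 3 were higher and 1 lower. The shares over all genes tested were 20.2% and 21.5%. Gpihbp1, which holds lipoprotein lipase on the capillary wall, had a log2 fold change of 1.43 (limma adjusted p = 0.00517). Lpl itself rose by 0.70 on the log2 scale (limma adjusted p = 0.00904), a direction that turned to -0.25 under quantile normalization. Lmf1, a maturation factor of lipoprotein lipase, rose by 0.62 (limma adjusted p = 0.00179), and Furin, a protease that cleaves several of these proteins, fell by 0.37 (limma adjusted p = 0.0036).

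Of 11 metabolic transcription factors and fatty acid response genes linked to Angptl4 and Vegfb, 6 were higher and 1 lower. Pparg, the nuclear receptor of adipocytes and a known activator of Angptl4, rose by 1.00 on the log2 scale (limma adjusted p = 0.00109), its partner Rxra by 0.71 (0.0012) and the lipogenic factor Srebf1 by 0.96 (0.00137). Plin2, a lipid droplet coat protein, fell by 1.58 (limma adjusted p = 9.83e-04). Of 15 hypoxia genes, a group to which Vegfa itself is known to belong, 7 were higher, 1 lower and 7 not called. Their median log2 fold change was 0.32. For both lists, the shares over all genes tested were 20.2% higher and 21.5% lower. The hypoxia genes named next are the 4 called with the smallest p. Ndrg1 rose by 0.93 on the log2 scale (limma adjusted p = 0.00264), the mitophagy gene Bnip3 by 1.43 (0.00279), the glycolytic regulator Pfkfb3 by 1.19 (0.00335) and Epas1, a hypoxia-inducible factor, by 0.78 (0.00558). The 1 lower gene was the glucose transporter Slc2a1, named after its value was seen, at -0.87 (limma adjusted p = 0.0226). It lost the call without WT replicate 3 (limma adjusted p = 0.0587) or KO replicate 4 (0.0589). The count of lower hypoxia genes was 2 with the filter of 50 or without WT replicate 1, WT replicate 2 or KO replicate 1, and 3 under DESeq2 or with library weights. It was 0 without WT replicate 3 or KO replicate 4.

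Of 6 genes for secreted inhibitors of angiogenesis, 2 were higher and 2 lower, beside 20.2% and 21.5% of all genes tested. Timp3, a metalloproteinase inhibitor that blocks Vegfa at Kdr, rose by 1.20 on the log2 scale (limma adjusted p = 0.00313). Thrombospondin Thbs1 rose by 1.36 (limma adjusted p = 0.0226), a call lost without WT replicate 1 (0.0593) or 3 (0.0596) or KO replicate 3 (0.0539). Thbs2 fell by 0.52 (limma adjusted p = 0.0314) and did not pass without WT replicate 1 (0.0779) or 3 (0.0839) or KO replicate 1 (0.0788) or 2 (0.0758). Serpinf1 fell by 0.76 (limma adjusted p = 0.0329). This call was lost without any 1 of the WT replicates (0.0618 to 0.067) and without KO replicate 3 (0.0854) or 4 (0.0666).

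The genes most like each of the 10 in pattern over the 8 libraries were found by the root mean square difference of log2 values after removing each gene's mean, among 13039 protein-coding genes. For Vegfa these were Car3 (0.193) and Lgals12 (0.203), for Vegfb Rtl8c (0.090) and Selenbp1 (0.091), and for Apln Ehd3 (0.131) and Orm1 (0.132). Angptl2 was nearest to Tmem186 (0.073) and Parp6 (0.073), Angptl4 to Hacd1 (0.052) and Ifrd1 (0.054), and Angpt2 to Ccdc138 (0.144) and Zwilch (0.153). For the genes that did not pass, the nearest were Dchs1 (0.085) and Spry4 (0.091) for Vegfc, Lrrn1 (0.215) and Nsdhl (0.245) for Pgf, Klrk1 (0.134) and Cox8b (0.149) for Angpt1, and Ddr1 (0.104) and Slc25a53 (0.117) for Angptl8. Pgf thus had the least close neighbours of the 10 genes. The measure is not scaled to a gene's spread, and Pgf spread widely, with coefficients of variation of 38.6% in KO and 31.7% in WT. Within the 10, the closest pair was Vegfc and Angptl8 (0.132), both without a called difference.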

How the data were processed

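RNA-seq of eWAT gave 1 library for each of 4 KO and 4 WT samples, grouped by title. The deposited table holds a signal per gene, a normalized count. Per the submitters' processing notes, the tools included STAR 2.7.7 and DESeq2, and the genome build was GRCm38.p6; the role of each is not stated. For the counter, strand setting, annotation and filters, the sources used here say nothing. Values above 0 came out as whole reads in 100.0% of cases, within 0.01 read, and the implied size factors (0.8246 to 1.1702) equalled recomputed median-of-ratios factors. Identifiers matched GENCODE M21 for 24802 of 24821 genes without version.

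Under R 4.3.3, limma 3.58.1 tested log2(normalized count + 1), a scale that understates changes of low genes, with group alone as the design, variance trend, robust moderation and Benjamini-Hochberg adjustment. Alternatives were edgeR 4.0.16 and DESeq2 1.42.0 on the recovered counts, quantile normalization, pseudocounts of 0.5 and 10, no filter or a stricter one of 50, library weights, a replicate block and libraries left out. The fit was also run on simulated counts, in which a far smaller share of genes changed than was called here. That run cannot show how the fit behaves when so many genes change. The 10 genes and all lists were chosen with earlier results of these data known. Named were the 10 genes, Ccdc92, all receptors, up to 4 called genes per pathway list by smallest p, and for each of the 10 the 2 protein-coding genes nearest in pattern with a mean of at least 50. Apela and Apoc2, on the lists, were not analysed here.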

Additional observations from a re-analysis of the deposited data

Results flagged for a closer look

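Of 86 sets of 4 values examined, 3 held a library far from its fellows by Dixon's criterion, a gap over 0.829 of the range. None of the 3 belonged to the 10 ligand genes. The sets were the ratios, the 10 genes, the receptors, the called genes named from the pathway lists, Dll4, Cxcr4 and Lyve1, in KO and in WT. Other named genes, such as Ccdc92, the epididymal markers and the genes nearest in pattern, were not examined. Akr1b7 in WT, at 80635.9 in replicate 4, was therefore not counted. Chance flags about 1 in 20 such sets. The normalized count of Srebf1 in KO replicate 4 was 16379.4, above 12192.2 to 12637.5 in the other KO libraries. For Slc2a1, KO replicate 4 had 418.4, below 541.2 to 565.7 in the other KO libraries. For Lmf1, WT replicate 4 had 556.2, above 471.6 to 480.7 in the other WT libraries.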

How the results depend on the processing

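Across 18 alternatives each, the log2 fold changes of Vegfa (2.31 to 2.65), Vegfb (1.45 to 1.69), Angptl2 (0.74 to 0.83), Apln (1.17 to 1.62) and Angpt2 (-1.08 to -0.78) kept their direction and their call. Angptl4 lost its call with no filter (0.48, limma adjusted p = 0.0528), under quantile normalization (0.41, 0.0746) and with both WT replicate 4 and KO replicate 3 left out (0.60, 0.057), and ranged from 0.38 to 0.58 with 1 library left out. Uncalled genes changed sign: Pgf to 0.06 under quantile normalization and 0.08 with library weights (-0.32 to 0.19 with 1 library left out), Angpt1 to 0.06 under quantile normalization (-0.32 to 0.09), Angptl8 (-0.13 to 0.22) and Nrp1 to 0.00 under edgeR (-0.05 to 0.03). Lpl turned to -0.25 under quantile normalization. That normalization moved the median of all genes from -0.007 to 0.098, and called 4593 genes higher and 3257 lower in KO, against 3592 and 3831. Receptors called lower numbered 2 in place of 1, Aplnr beside Nrp2, with the filter of 50, DESeq2 and library weights, and 1 to 2 with 1 library left out. In the lists of inhibitors, hypoxia genes and other ligands, 34 counts of the 180 over all pathway lists moved past 1.5 times. The causes were not tested. Same-numbered KO and WT libraries did not deviate together over the genes tested (correlations of -0.14, 0.05, -0.04 and 0.17). Libraries of unlike number gave -0.24 to 0.18. The labels do not say whether equal numbers mark pairs, and these correlations cannot exclude it. With the replicate block, 2989 genes were higher and 3277 lower, 4 of the 10 genes were higher and 1 lower, Angptl4 missed the threshold (0.48, limma adjusted p = 0.0759), as did Flt4 (0.0829), receptors called lower numbered 2 and hypoxia genes called lower 3. The ratios passed in none of their 14 alternatives. The exact test could not pass with 1 library left out or with WT replicate 4 and KO replicate 3 both left out. Nor could it pass with the replicate block, so failure in these settings carries no information.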

Other observations

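Of 5 markers of sprouting (tip) endothelium, 1 was higher and 1 lower in KO, with summed normalized counts of 4371 to 6045 in KO and 4267 to 5279 in WT. The higher gene was Dll4, a Notch ligand induced by Vegfa, at 1053.9 to 1581.2 in KO and 359.6 to 964.6 in WT (log2 fold change 1.19, SE 0.27, limma adjusted p = 0.00896). The lower gene was the chemokine receptor Cxcr4, at 232.8 to 398.8 in KO and 691.6 to 1095.3 in WT (log2 fold change -1.36, SE 0.20, limma adjusted p = 0.00153). All 10 macrophage markers were lower too, and the cell source of the Cxcr4 RNA was not tested. Of 5 lymphatic markers, 1 was higher, Lyve1, which some macrophages also express, at 1608.1 to 2050.9 in KO and 409.7 to 791.2 in WT (log2 fold change 1.81, SE 0.21, limma adjusted p = 6.13e-04). Of 8 mural cell markers, 2 were higher and 1 lower, and their sums overlapped (25492 to 37288 in KO, 17269 to 60957 in WT). For the tip, lymphatic and mural lists, the shares over all genes tested were 20.2% higher and 21.5% lower. Dll4, Cxcr4 and Lyve1 were named after their values were seen.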
